A study of Rattus norvegicus with 3 samples.

Results

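The choroid plexus epithelium of the rat brain was studied in 72 nuclei, taken from 51647 barcodes of single-nucleus RNA sequencing. A nucleus was counted as choroid plexus epithelium when it held at least 3 unique molecular identifiers (UMIs, each standing for 1 captured RNA molecule) summed over Folr1, Kl, Aqp1, Otx2, Clic6, Slc4a5, Kcne2 and Kcnj13, with at least 2 of these 8 genes detected, and at most 4 UMIs summed over the neuronal genes Syt1, Snap25 and Rbfox3. This gate left 33 nuclei of the LPS library, 18 of the poly(I:C) library and 21 of the saline library. The nuclei were thus selected on the measured UMIs of these 11 genes, which are described below and not compared as findings.

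The animals were WT females of the strain Crl:CD(SD), outbred Sprague Dawley rats, and were 12 weeks old. They received an intraperitoneal injection of LPS at 5 mg/kg, of poly(I:C) at 12 mg/kg or of saline, and brains were collected 7 hours later. LPS (lipopolysaccharide) is an outer membrane component of Gram-negative bacteria that binds the receptor Tlr4. A synthetic double-stranded RNA, poly(I:C) binds Tlr3 and cytosolic RNA sensors such as Ifih1. Nuclei of 4 animals were pooled in each group and the labels give no map from nuclei to animals, so each group is 1 library, no test across animals could be made, and no p-value is given.

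The choroid plexus lies within the brain ventricles, where its epithelium secretes cerebrospinal fluid and forms the barrier between blood and that fluid. Its cells are joined by tight junctions, sit over leaky capillaries, and so meet circulating microbial products and cytokines directly. They are known for making transthyretin (Ttr), the carrier of thyroid hormone and of retinol-binding protein in cerebrospinal fluid, and for bringing ions, hormones, folate and vitamins across the barrier. Type I interferon signals through Ifnar1 and Ifnar2 to a complex that includes Stat2 and Irf9 and binds a repeated GAAA element in the promoters of interferon-stimulated genes.

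The LPS, poly(I:C) and saline libraries held 11211, 15001 and 25435 barcodes, with medians of 2436, 1264 and 1165 UMIs per barcode. The choroid plexus epithelial nuclei were shallower, with medians of 835 UMIs (599 to 3150) in the LPS library, 474.5 UMIs (425 to 544) in the poly(I:C) library and 712 UMIs (444 to 2160) in the saline library. In all they held 32672, 8612 and 19509 UMIs. The lowest UMI counts of any barcode were 500, 403 and 440, so the poly(I:C) nuclei lay near the lower end of what that library contains. Between 247 and 550 barcode sequences occurred in more than 1 library, but no choroid plexus epithelial barcode was among them.

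Levels below are in CPM, the UMIs of a gene summed over the gated nuclei of a library, divided by all UMIs of those nuclei and scaled to 1000000. Ratios of levels carry exact 95% intervals that cover counting error only, and neither animals nor preparation. Among the gate genes, Slc4a5, a bicarbonate transporter of the apical membrane, carried 71, 32 and 35 UMIs in the LPS, poly(I:C) and saline nuclei. Kl (klotho, a co-receptor for Fgf23) carried 42, 15 and 27 UMIs, and Clic6, a chloride channel family member, carried 30, 15 and 12 UMIs. Otx2, the homeobox factor that specifies choroid plexus, had 13, 2 and 4 UMIs, and Kcnj13, an inward rectifier potassium channel, had 7, 7 and 4 UMIs. Folr1 and Aqp1 contributed little. Folr1, the folate receptor, had 1 UMI in each library, and the water channel gene Aqp1 had 1 UMI, in the LPS library. Kcne2 had 3, 2 and 6 UMIs, or 91.8, 232 and 308 CPM, against 63.3, 58.9 and 70.6 CPM in the other barcodes of each library.

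Genes that the gate did not use carried the label. The 25 other choroid plexus markers that the files hold summed to 46431 CPM in the LPS nuclei, 39828 CPM in the poly(I:C) nuclei and 35163 CPM in the saline nuclei, against 1669, 1522 and 1598 CPM in the remaining barcodes. Htr2c, the serotonin receptor of this epithelium, had 279, 84 and 134 UMIs, or 8539, 9754 and 6869 CPM, and was found in 31 of 33, 17 of 18 and 21 of 21 nuclei. Enpp2, which encodes the secreted enzyme autotaxin, had 186, 58 and 123 UMIs, or 5693, 6735 and 6305 CPM. Every nucleus of the poly(I:C) and saline libraries, and 31 of the 33 LPS nuclei, held a UMI of Htr2c or Enpp2. In each library the levels of these receptors and enzymes lay far above the 192, 176 and 188 CPM of Htr2c and the 102, 71.2 and 83.9 CPM of Enpp2 in the other barcodes.

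Of 53 genes with a symbol and at least 10 UMIs in the gated nuclei of each library, 17 outside the gate were at least 5-fold above the other barcodes in all 3 libraries. Of these, 5 belonged to the marker list: Col8a1 (a short-chain collagen), Enpp2, Prlr (the prolactin receptor), Htr2c and Trpm3 (a calcium-permeable channel). The other 12 were Vat1l, Nckap5, Phactr2, Gulp1, Slco1a4, Stk39, Gpm6a, Pip5k1b, Ca12, Mapk4, Maml2 and Nfia. They include Stk39, the kinase SPAK that activates sodium and chloride cotransport, Ca12, a carbonic anhydrase, and Slco1a4, an organic anion transporter. Slco1a4 had 1132, 1161 and 615 CPM in the gated nuclei, against 5.52, 2.72 and 37.1 CPM in the other barcodes. It is also a marker of brain endothelium, but Cdh5, Ptprb and Tek were at 0 in the gated nuclei of all 3 libraries and Pecam1 had its only UMI in the saline library.

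**Figure D1:**
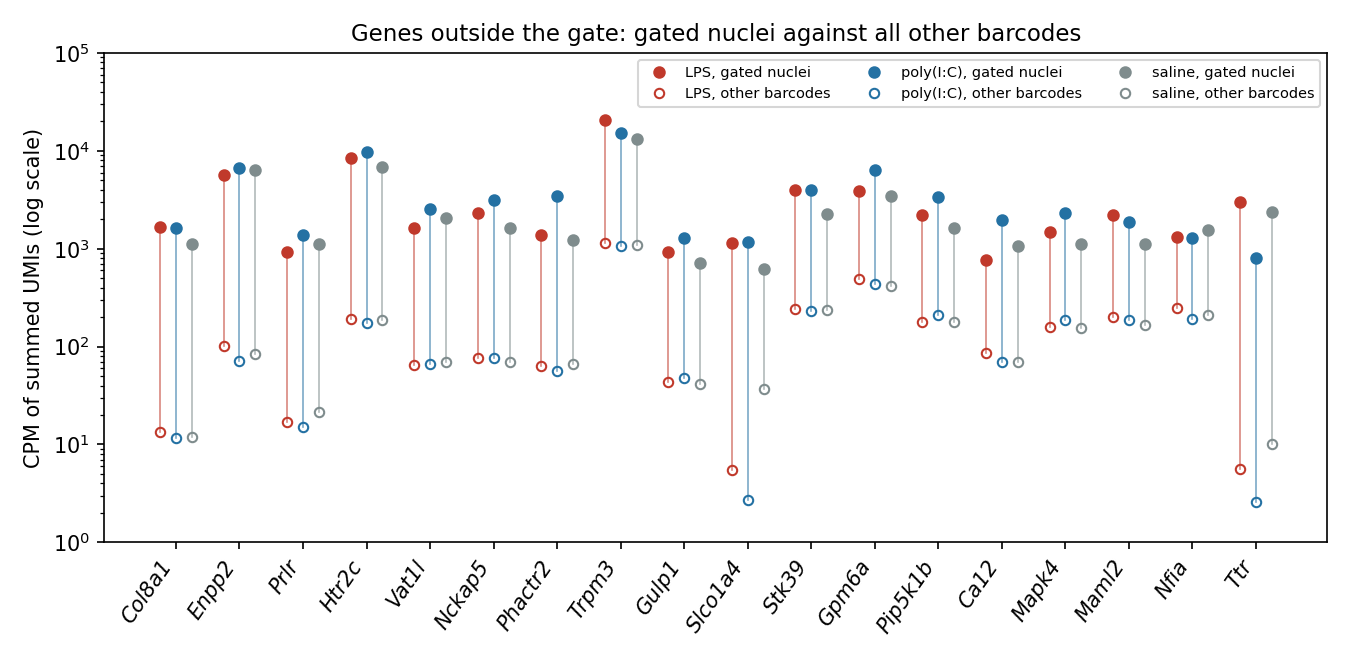
Levels (CPM of summed UMIs, log axis) of the 17 genes outside the gate and of Ttr in gated nuclei (filled) and in all other barcodes (open) of the LPS, poly(I:C) and saline libraries, joined by a line for each library. In every library each gene sits at least 5-fold higher in the gated nuclei, and Ttr is lowest in the poly(I:C) nuclei.

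Ttr had 99, 7 and 46 UMIs in the LPS, poly(I:C) and saline nuclei, or 3030, 813 and 2358 CPM, against 5.58, 2.58 and 10.1 CPM in the other barcodes. It was found in 25 of 33, 6 of 18 and 16 of 21 nuclei. The poly(I:C) nuclei were thus the low ones, with a ratio of 0.345 to saline (0.131 to 0.769), whereas the LPS nuclei were at 1.29 times saline (0.897 to 1.87). This order did not extend to the nuclei just outside the gate, with 2 gate UMIs of 2 genes, which held 15, 9 and 23 UMIs of Ttr, or 1108, 4719 and 2081 CPM, in 11 LPS, 4 poly(I:C) and 15 saline nuclei.

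RNA of neurons was present in the gated nuclei, at a level that the gate set in part. The neuron markers include Syt1, Snap25 and Rbfox3, which the gate held to at most 4 UMIs. These gate genes had 27, 8 and 26 UMIs in the LPS, poly(I:C) and saline nuclei. The 7 neuron markers found in the files summed to 5081 CPM in the LPS nuclei, 3948 CPM in the poly(I:C) nuclei and 10303 CPM in the saline nuclei, which is 14.8%, 11.4% and 29.8% of their level in the other barcodes. Syt1, a synaptic vesicle protein gene, was found in 48.5%, 33.3% and 71.4% of the gated nuclei and in 84.4%, 89.9% and 89.4% of the others. Because the gate used Syt1 and the gated nuclei were shallower, these shares are a description and not a finding. In the saline library the 7 nuclei with over 1100 UMIs held 148 of the 201 neuron marker UMIs, and in the LPS library the 3 such nuclei held 79 of 166. The poly(I:C) library had no gated nucleus over 1100 UMIs.

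**Figure D2:**
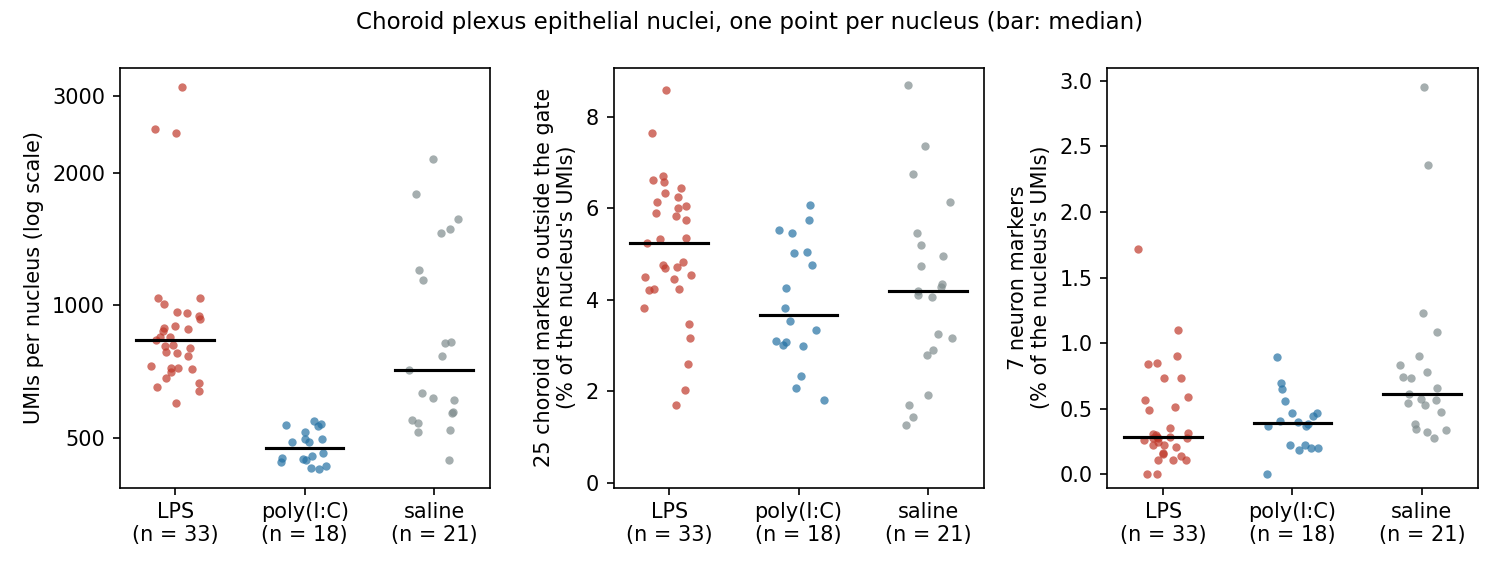
UMIs per nucleus (log axis), the share of UMIs from 25 choroid markers outside the gate and the share from 7 neuron markers (both in percent) for each gated nucleus of the LPS, poly(I:C) and saline libraries, with medians as bars. The medians are 835, 474.5 and 712 UMIs, 5.25%, 3.67% and 4.20% for choroid markers, and 0.289%, 0.395% and 0.614% for neuron markers.

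Ependymal cells, the ciliated lining of the ventricles, border this epithelium and share some of its genes. The 6 ependymal markers in the files summed to 1408, 348 and 1179 CPM in the gated nuclei, against 63.6, 60.0 and 55.8 CPM elsewhere. Of these 6 markers, 4 were detected in the LPS nuclei, 1 in the poly(I:C) nuclei and 3 in the saline nuclei. Among them Dnah12 had 22, 0 and 6 UMIs. Ccdc153 and Tmem212 were at 0 in all 3 libraries, and 6, 0 and 2 gated nuclei held at least 3 ependymal UMIs. Microglia or macrophage markers had 3, 0 and 0 UMIs, astrocyte markers 3, 0 and 3, fibroblast markers 1, 0 and 0, and T or NK cell markers were at 0 in each library. Oligodendrocyte markers had 16, 1 and 13 UMIs, and oligodendrocyte precursor markers 14, 3 and 18. The precursor markers stood at 429, 348 and 923 CPM, above the 291, 245 and 228 CPM of the other barcodes. Only in the saline library did their counting interval (547 to 1458 CPM) lie above the other barcodes. Oligodendrocyte markers were at 490, 116 and 666 CPM, against 593, 333 and 384 CPM, so higher only in the saline nuclei. Mural markers had 0, 1 and 1 UMIs, neutrophil markers 0, 1 and 0, and the 2 haemoglobin genes 0, 1 and 2. Of the gated nuclei, 9, 1 and 6 held at least 3 UMIs of the markers of a cell type other than neurons and choroid plexus. These counts include endothelial markers, with at least 3 UMIs in 2, 1 and 1 nuclei. Endothelial markers had 37, 10 and 13 UMIs, and 37, 10 and 12 of these were of Slco1a4, a leading gene of the gated nuclei given above.

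The gated nuclei made up 0.294% of the LPS barcodes (exact Clopper-Pearson 95% interval 0.203% to 0.413%), 0.120% of the poly(I:C) barcodes (0.0711% to 0.190%) and 0.0826% of the saline barcodes (0.0511% to 0.126%). The share in the LPS library lay above the other two, whose intervals overlap. Because a gate of 3 UMIs is easier to pass in a deeper barcode, each barcode was also thinned to 400 UMIs, which left 11 gated nuclei (0.0981%) in the LPS library, 12 (0.0800%) in the poly(I:C) library and 10 (0.0393%) in the saline library. At equal depth the LPS and poly(I:C) shares therefore lay close together, with intervals of 0.0490% to 0.175% and 0.0413% to 0.140%.

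Many nuclei lay close to the limits of the gate. Of the gated nuclei, 9, 6 and 10 had exactly 3 gate UMIs, while 11, 4 and 15 nuclei just outside had 2 gate UMIs of 2 genes. Those just inside had 9634, 15368 and 5540 CPM of Htr2c in the LPS, poly(I:C) and saline libraries, and those just outside had 2956, 6817 and 8777 CPM, so Htr2c was lower outside the limit in the LPS and poly(I:C) libraries and higher outside it in the saline library. Without the neuronal ceiling 38, 23 and 33 nuclei would have passed, and the nuclei above the ceiling had medians of 3972, 2439 and 2204 UMIs.

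The libraries differed in the interferon-stimulated genes of these nuclei. The 45 genes of this list that the files hold (of 50) summed to 92 UMIs in the LPS nuclei, 146 UMIs in the poly(I:C) nuclei and 3 UMIs in the saline nuclei. This gives 2816 CPM (exact Poisson 95% interval 2270 to 3453) after LPS, 16953 CPM (14315 to 19937) after poly(I:C) and 154 CPM (31.7 to 449) after saline. The summed level was 18.3 times saline after LPS (6.07 to 90.4) and 110.2 times saline after poly(I:C) (37.0 to 541). LPS was at 0.166 times poly(I:C) (0.127 to 0.217), a ratio that does not use the saline library, which the other 2 comparisons share. The 3 UMIs of the saline nuclei came from Herc6, Ifih1 and Pml, so the ratios to saline rest on a very small count. In the 16, 6 and 5 nuclei that passed a stricter gate of at least 5 UMIs and 3 genes, saline had none of these UMIs, and set against 3 counts the summed level was at least 3.07 times saline after LPS and at least 21.9 times saline after poly(I:C). Without the neuronal ceiling the poly(I:C) ratio was 36.8.

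The same list differed less in the rest of the brain nuclei. In the other barcodes it summed to 428 CPM after LPS, 1501 CPM after poly(I:C) and 272 CPM after saline, which is 1.57 and 5.51 times saline. Choroid plexus epithelial nuclei thus stood above the pooled rest of their own library after LPS and after poly(I:C). The 272 CPM of the other saline barcodes lay within the interval of the saline nuclei. Syt1 was found in 84.4%, 89.9% and 89.4% of the other LPS, poly(I:C) and saline barcodes. No single other cell type was set beside the gated nuclei.

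The difference was spread over the nuclei. At least 1 UMI of the list was found in 25 of 33 LPS nuclei, in 18 of 18 poly(I:C) nuclei and in 3 of 21 saline nuclei, and at least 2 different genes of it in 18, 18 and 0 nuclei. The number of these UMIs per nucleus had a median of 2 in LPS nuclei (0 to 19), 7 in poly(I:C) nuclei (4 to 20) and 0 in saline nuclei (0 to 1). No poly(I:C) nucleus overlapped any saline nucleus, although the poly(I:C) nuclei were the shallowest. The LPS nuclei were uneven: 8 had none of these UMIs, and the 2 highest had 19 and 12. Thinned to 400 UMIs, the expected share of nuclei with a UMI of the list was 55.4%, 99.99% and 10.1% in the gated nuclei, against 15.1%, 30.1% and 10.5% in the other barcodes.

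**Figure D3:**
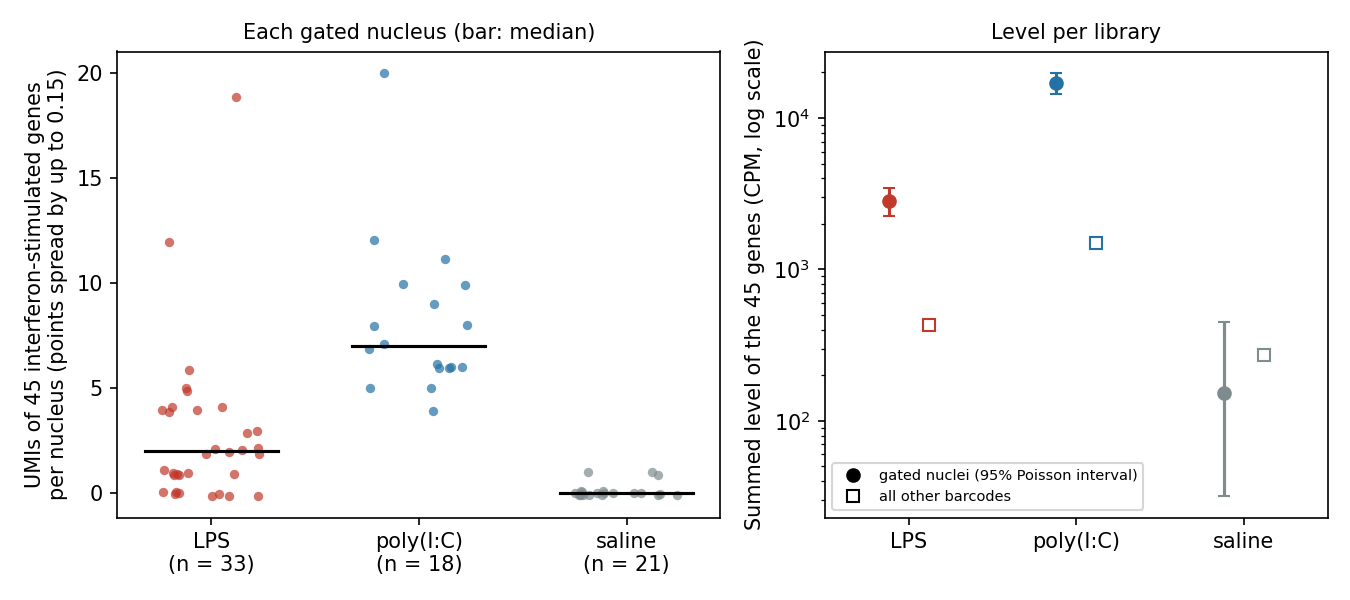
Left, UMIs of the 45 interferon-stimulated genes in each gated nucleus of the LPS, poly(I:C) and saline libraries, with medians of 2, 7 and 0 as bars; right, the summed level in CPM (log axis) in gated nuclei with its 95% Poisson interval (circles) and in all other barcodes (squares). Every poly(I:C) nucleus holds at least 4 of these UMIs and no saline nucleus more than 1.

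Promoter sequences are shown for Oasl2, Parp14 and Ifi44, the 3 of the 7 members with at least 10 UMIs in the LPS and poly(I:C) nuclei together whose window holds GAAA, any 2 bases and GAAA again, the core of the interferon-stimulated response element, on either strand. The 250 bases before the annotated start are printed 5′ to 3′ on the strand of the gene, from RefSeq on the GRCr8 build (the counts use mRatBN7.2), and capitals mark the match or its reverse complement.
Oasl2 (chr12:47383186-47383435, minus strand): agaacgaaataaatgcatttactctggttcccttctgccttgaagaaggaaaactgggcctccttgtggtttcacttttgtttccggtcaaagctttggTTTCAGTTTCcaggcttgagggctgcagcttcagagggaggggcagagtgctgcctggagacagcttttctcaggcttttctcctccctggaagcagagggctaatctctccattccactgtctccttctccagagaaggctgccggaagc
Parp14 (chr11:78407884-78408133, plus strand): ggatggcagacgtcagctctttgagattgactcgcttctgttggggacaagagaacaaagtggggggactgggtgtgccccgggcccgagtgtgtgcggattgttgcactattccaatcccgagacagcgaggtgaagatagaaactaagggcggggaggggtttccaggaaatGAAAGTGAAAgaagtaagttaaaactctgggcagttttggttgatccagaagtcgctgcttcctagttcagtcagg
Ifi44 (chr2:243303841-243304090, minus strand): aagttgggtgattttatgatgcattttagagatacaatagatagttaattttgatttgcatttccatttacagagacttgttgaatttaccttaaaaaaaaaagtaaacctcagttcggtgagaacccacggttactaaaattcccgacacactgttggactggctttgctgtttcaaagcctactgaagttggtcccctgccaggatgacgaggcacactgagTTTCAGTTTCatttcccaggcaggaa
The first match began 151 bases before the start in Oasl2, 76 bases before it in Parp14 and 26 bases before it in Ifi44. In windows from 250 bases before to 50 after the start, the element was found in 3.92% of the 33469 promoters of the RefSeq table. It was found in 24 of the 36 listed interferon-stimulated genes that matched that table, or 66.7%. The windows of Mx1, Herc6 and Stat2 hold no match. Mx2 was not matched to the RefSeq table, so its window was not searched. Oasl2 was the only one with the element among the 12 matched genes of the 14 that led the poly(I:C) comparison.

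Among the antiviral effectors, Mx1, a dynamin-like GTPase that blocks virus replication, had 1, 17 and 0 UMIs in the LPS, poly(I:C) and saline nuclei, in 1, 11 and 0 nuclei. Mx2, a related GTPase, had 3, 10 and 0 UMIs. Oasl2, of the 2′-5′ oligoadenylate synthetase family, had 3, 12 and 0 UMIs, and Rsad2 (viperin) had 3, 5 and 0 UMIs. Each was high in the poly(I:C) nuclei and at 0 in the saline nuclei. Set against 3 counts in place of 0, poly(I:C) over saline was at least 12.8-fold for Mx1, at least 9.06-fold for Oasl2 and at least 7.55-fold for Mx2, and the exact intervals began at 9.35, 6.29 and 5.08.

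Regulators and sensors followed. Herc6, a ubiquitin ligase that in mouse attaches Isg15 to proteins, had 11, 26 and 1 UMIs in 7, 15 and 1 nuclei, or 337, 3019 and 51.3 CPM. Its ratio of poly(I:C) to saline was 58.9 (9.68 to 2415), and its ratio of LPS to poly(I:C) was 0.112 (0.0497 to 0.234). Stat2, the transcription factor of the interferon receptor, had 4, 11 and 0 UMIs, at least 8.31-fold over saline after poly(I:C). The RNA sensor genes Ddx58 (RIG-I) and Ifih1 (MDA5) each had 3 UMIs in the LPS nuclei and 3 in the poly(I:C) nuclei, against 0 and 1 in the saline nuclei, and the RNA-editing enzyme gene Adar had 3, 6 and 0 UMIs. These counts are too small for single ratios.

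The makeup of the list differed between the 2 stimuli only as far as small counts allow. After LPS, Herc6 (11 UMIs), Ifi44 (7), Parp14 (7), Samd9 (7) and Usp18 (6, the deubiquitinase that removes Isg15) held the most UMIs of the list. Herc6 was the only member with at least 10 UMIs over the LPS and saline nuclei, at a ratio of 6.57 (0.955 to 283). Samd9 and Usp18 had 7 and 6 UMIs in the LPS nuclei, against 2 and 2 in the poly(I:C) nuclei, which at the depths of both gives ratios of 0.923 (0.176 to 9.10) and 0.791 (0.141 to 8.01). Of the 7 members with at least 10 UMIs in the LPS and poly(I:C) nuclei together, all 7 were at least 2-fold lower after LPS than after poly(I:C): Mx1, Herc6, Oasl2, Mx2, Stat2, Ifi44 and Parp14. Members pass this minimum mostly through the poly(I:C) library, so the 7 of 7, beside 14.3% of all genes counted in that comparison, is no separate evidence. The same holds for the 5 of 5 higher after poly(I:C) than after saline, beside 17.7% of all genes, and for Herc6 after LPS, beside 15.7%. Median log2 ratios over the members counted were 2.72 for LPS over saline (1 member), 3.18 for poly(I:C) over saline (5 members, 4 of them at 0 in saline and taken at their bound) and -3.38 for LPS over poly(I:C) (7 members), beside 0.06, -0.24 and 0.08 over all genes counted.

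Across all genes, 1253 had at least 10 UMIs in the LPS and saline nuclei together. In the LPS nuclei 197 of these (15.7%) stood at 2-fold or more above saline and 162 (12.9%) at 0.5 times saline or less. For poly(I:C) over saline 525 genes were counted, 93 (17.7%) of them 2-fold or more higher and 126 (24.0%) 2-fold or more lower. For LPS over poly(I:C) 946 genes were counted, with 166 (17.5%) past 2-fold upward and 135 (14.3%) past 2-fold downward. The balance depended on the scaling. Scaled by the median of ratios, 274 genes were higher and 124 lower for LPS over saline. The counts were then 42 and 238 for poly(I:C) over saline, and 346 and 45 for LPS over poly(I:C). Without that scaling, the interval included a ratio of 1 for 158 of the 197, 39 of the 93 and 153 of the 166 higher genes. It did so for 85 of the 162, 74 of the 126 and 77 of the 135 lower genes. Counts past 2-fold thus hold many genes that counting error alone could place there, and those named next are the ones whose intervals' ends nearest 1 ranked farthest from it.

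A small set of genes was high in the nuclei of the LPS and of the poly(I:C) library and low in those of the saline library. They were picked because they led both comparisons to saline. Both comparisons share the same saline nuclei, so their ratios are not separate observations. Naaladl2, a little-studied relative of glutamate carboxypeptidase II, had 126, 64 and 15 UMIs, or 3857, 7431 and 769 CPM. It was found in 31 of 33, 18 of 18 and 11 of 21 nuclei. Its ratio to saline was 5.02 (2.93 to 9.23) after LPS and 9.67 (5.45 to 18.3) after poly(I:C), and its ratio of LPS to poly(I:C) was 0.519 (0.381 to 0.713). In the other barcodes Naaladl2 stood at 398, 380 and 351 CPM, so the difference there was small.

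Lrmda, whose loss in humans causes a form of albinism, had 74, 16 and 3 UMIs, or 2265, 1858 and 154 CPM, in 28, 11 and 3 nuclei. Its ratio to saline was 14.7 (4.85 to 73.0) after LPS and 12.1 (3.46 to 64.7) after poly(I:C), against 1.47 and 1.04 in the other barcodes. Samd4a, an RNA-binding repressor of translation, had 28, 12 and 4 UMIs, with ratios of 4.18 (1.46 to 16.4) and 6.80 (2.06 to 28.9), against 0.993 and 1.05 elsewhere. Rnf213, a large interferon-inducible ubiquitin ligase, had 20, 16 and 2 UMIs, with ratios of 5.97 (1.45 to 52.7) and 18.1 (4.26 to 162). In the other barcodes Rnf213 was at 18.3, 114 and 5.72 CPM, or 3.20 and 19.95 times saline, where Naaladl2, Lrmda and Samd4a were at most 1.47 times saline.

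In the nuclei just outside the gate, which the values above do not use, Naaladl2, Lrmda and the interferon-stimulated genes also had their lowest levels in the saline library. The 11 LPS, 4 poly(I:C) and 15 saline nuclei with 2 gate UMIs held 35, 9 and 8 UMIs of Naaladl2, or 2586, 4719 and 724 CPM. For Lrmda they held 15, 3 and 2 UMIs, or 1108, 1573 and 181 CPM. Their interferon-stimulated genes summed to 86, 33 and 4 UMIs, or 6355, 17305 and 362 CPM, and 10 of 11, 4 of 4 and 4 of 15 of them held a UMI of the list. Ttr was highest there in the poly(I:C) library, as given above, and Rad51b had 886.8, 0 and 362 CPM. They come from the same 3 libraries and are no replicates.

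**Figure D4:**
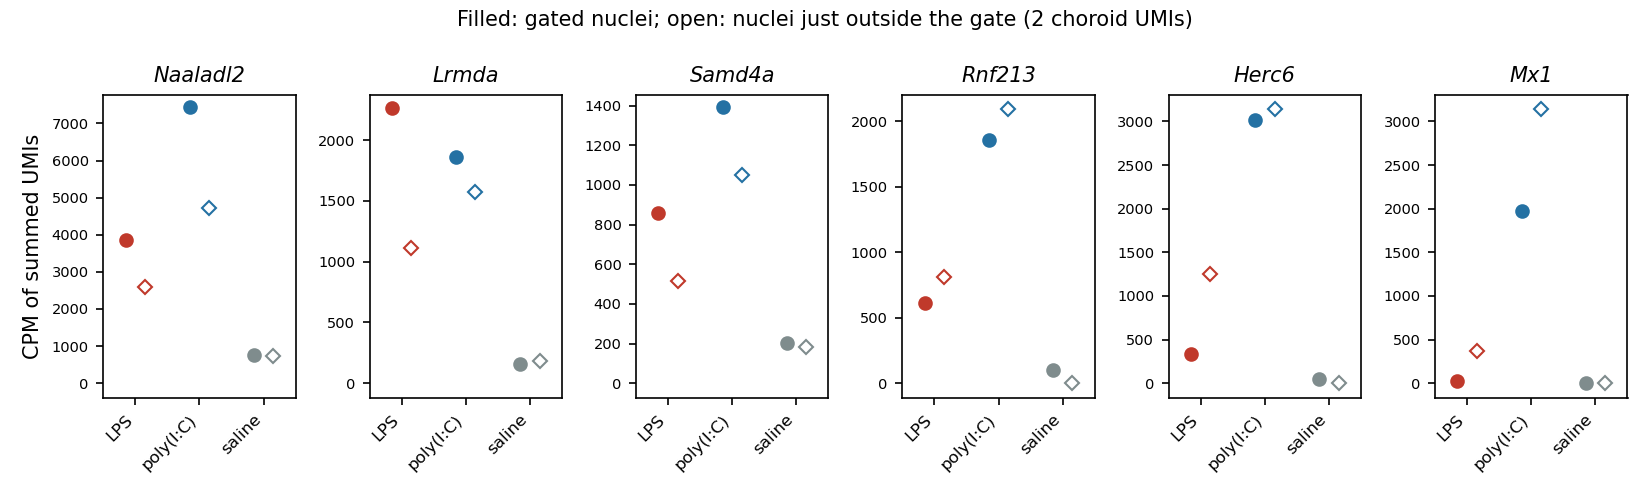
Levels (CPM of summed UMIs) of Naaladl2, Lrmda, Samd4a, Rnf213, Herc6 and Mx1 in the gated nuclei (filled; 33 LPS, 18 poly(I:C), 21 saline) and in the nuclei just outside the gate with 2 gate UMIs (open; 11 LPS, 4 poly(I:C), 15 saline). In each panel the saline points are the lowest, inside and outside the gate, except that Mx1 in gated LPS nuclei (1 UMI) lies close to 0 as well.

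Among the other genes that led the LPS comparison, Cgnl1, which encodes the junction protein paracingulin, had 29 UMIs in LPS nuclei, 5 in poly(I:C) nuclei and 2 in saline nuclei. Its ratio of LPS to saline was 8.66 (2.19 to 74.9), against 0.636 in the other barcodes. Wdpcp, a planar polarity and ciliogenesis gene, had 29, 4 and 4 UMIs, a ratio of 4.33 (1.52 to 16.9). Rad51b, of the homologous recombination machinery, had 38, 3 and 5 UMIs, a ratio of 4.54 (1.78 to 14.8). Bicc1, an RNA-binding protein gene of ciliated epithelia, had 20, 0 and 1 UMIs, and Mtus1, which encodes a microtubule-associated protein, had 18, 1 and 1. Cdr2 had 18, 2 and 0 UMIs, and Rrbp1, of the rough endoplasmic reticulum, had 12, 2 and 0. Bmpr2, the type II receptor for bone morphogenetic proteins, Arhgef3 and Arhgap35, an activator and an inhibitor of small GTPases, each had 16 UMIs in LPS nuclei and 1 in saline nuclei. Where saline had 0 or 1 UMI, the size of the ratio cannot be fixed at this depth.

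The genes that led the poly(I:C) comparison besides the interferon-stimulated list and the 4 shared genes were Sp100, Vps54, Ascc3, Ssbp2 and Strip2. Sp100, a nuclear body protein gene known to respond to interferon, had 8, 9 and 1 UMIs in the LPS, poly(I:C) and saline nuclei, a poly(I:C) ratio of 20.4 (2.83 to 894). Ascc3, a helicase of DNA repair and ribosome quality control, had 6, 17 and 5 UMIs, a ratio of 7.70 (2.73 to 26.7). Vps54, a subunit of a tether for vesicles returning to the Golgi, had 4, 13 and 3 UMIs, a ratio of 9.82 (2.70 to 53.7). Ascc3 and Vps54 did not stand above saline after LPS, at 184 and 122 CPM in LPS nuclei against 256 and 154 CPM in saline nuclei. Strip2, a scaffold of a phosphatase complex, had 24, 21 and 9 UMIs, a ratio of 5.29 (2.32 to 13.1). Ssbp2, a transcriptional cofactor, had 15, 12 and 4 UMIs, a ratio of 6.80 (2.06 to 28.9).

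**Figure D5:**
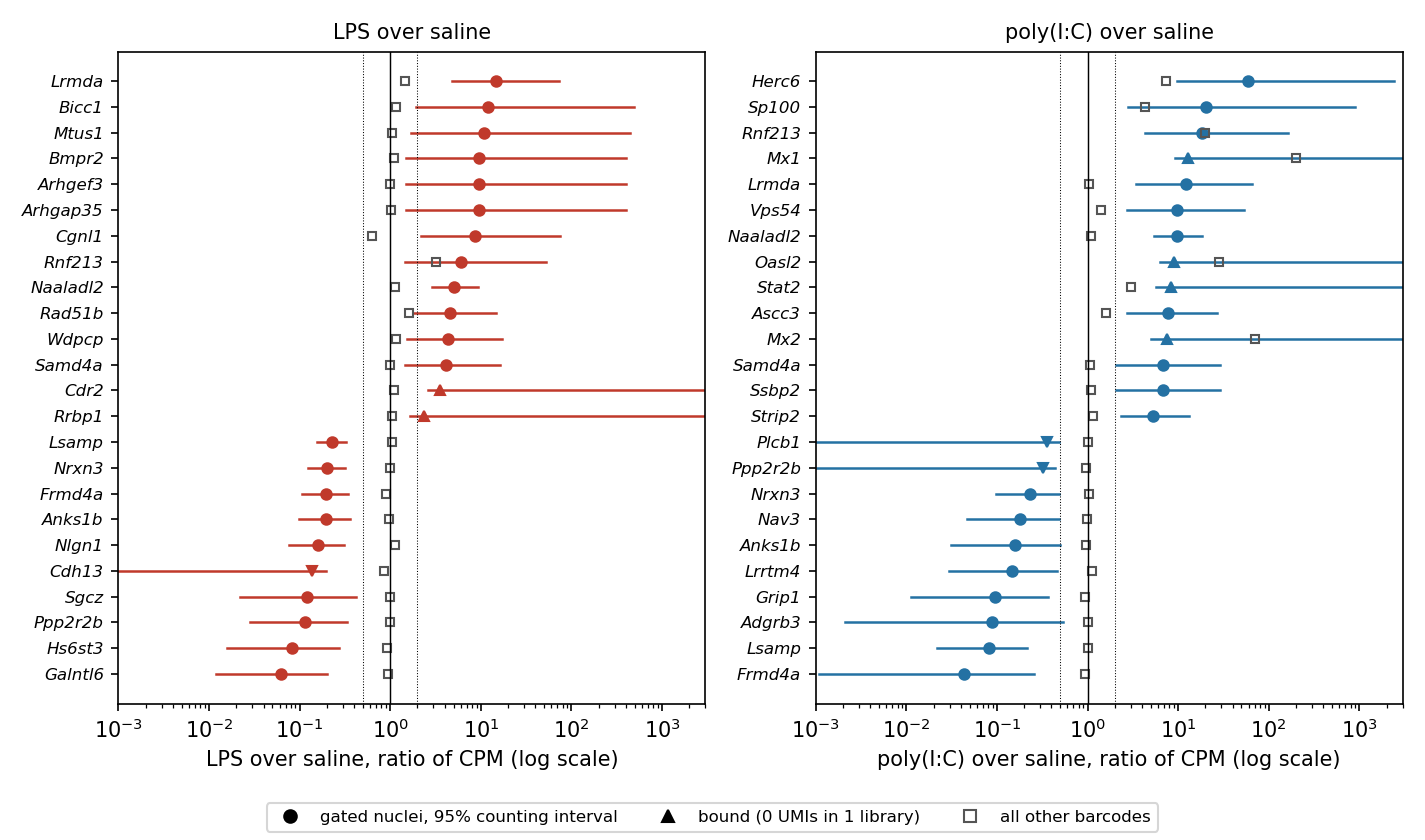
Ratios of CPM to saline (log axis) in gated nuclei of the 14 genes that led upward and the 10 that led downward after LPS (left) and after poly(I:C) (right), with 95% counting intervals; triangles are bounds where 1 library had 0 UMIs, open squares are the ratio in all other barcodes, and dotted lines mark 0.5 and 2. Most open squares lie near 1, except for interferon-inducible genes such as Mx1 and Herc6.

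The genes at the lower end included many known from neurons. After LPS they were Galntl6, Hs6st3, Ppp2r2b, Sgcz, Cdh13, Nlgn1, Anks1b, Frmd4a, Nrxn3 and Lsamp, among them the synaptic adhesion genes Nlgn1 and Nrxn3 and the neuronal adhesion gene Lsamp. Lsamp had 42 UMIs in LPS nuclei, 4 in poly(I:C) nuclei and 111 in saline nuclei, or 1286, 464 and 5690 CPM, with 8105, 7772 and 7750 CPM in the other barcodes. Nrxn3 had 26, 8 and 78 UMIs and Nlgn1 had 12, 7 and 45. After poly(I:C) the 10 were Frmd4a, Lsamp, Adgrb3, Grip1, Lrrtm4, Anks1b, Nav3, Nrxn3, Ppp2r2b and Plcb1. These genes moved with the summed neuron markers given above, at 5081, 3948 and 10303 CPM. Without the nuclei over 1100 UMIs the genes at least 2-fold lower numbered 72 of 682 counted for LPS and 43 of 260 for poly(I:C). With a neuronal profile subtracted they numbered 105 of 970 and 82 of 375, in place of 162 of 1253 and 126 of 525. The number of genes counted thus fell as well.

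Between the 2 stimuli, Ttr stood at 3.73 times its poly(I:C) level after LPS (1.74 to 9.51). Cab39l, a partner of the kinase Stk39, had 61 UMIs in LPS nuclei and 5 in poly(I:C) nuclei, a ratio of 3.22 (1.31 to 10.3), and 20 UMIs in saline nuclei. Fhit had 64 and 6 UMIs, a ratio of 2.81 (1.22 to 7.95), and Fras1, which encodes an extracellular matrix protein, had 43 and 4, a ratio of 2.83 (1.03 to 10.9). The ratio of Ttr, Cab39l, Fhit and Fras1 was at least 2 under every alternative that gave a value. None of these alternatives lowered the required number of gate UMIs. In the nuclei just outside the gate, Ttr went the other way, at 1108 CPM after LPS and 4719 CPM after poly(I:C). Others that led upward were Pcdh9, Nav3, Csmd3, Rad51b, Clasp2, Lsamp, Adgrb3 and Pan3, several of them neuronal. The intervals of Adgrb3 (0.984 to 249.7) and Pan3 (0.937 to 239) included 1, and Pcdh9, Nav3, Csmd3, Lsamp and Adgrb3 were below a ratio of 1 under at least 1 alternative. Lower after LPS than after poly(I:C) were, besides Mx1, Herc6, Oasl2, Mx2 and Stat2, the genes Ascc3, Vps54, Ktn1, Plppr5 and Strip2. Ktn1, a kinesin-binding protein gene, had 6 UMIs in LPS nuclei and 10 in poly(I:C) nuclei, a ratio of 0.158 (0.0472 to 0.480).

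Genes of fluid secretion were higher in sum in the LPS and poly(I:C) nuclei than in the saline nuclei. The 21 in the files summed to 9702 CPM in LPS nuclei, 9870 CPM in poly(I:C) nuclei and 6766 CPM in saline nuclei. The ratios to saline were 1.43 (1.17 to 1.77) and 1.46 (1.10 to 1.93), against 1.02 and 0.992 in the other barcodes. Of these UMIs in the gated nuclei, 130, 34 and 44 were of Stk39. After LPS 1 of 8 genes counted was at least 2-fold higher, Atp1b1 of the sodium pump (17 UMIs after LPS against 4 after saline), beside 15.7% of all genes, and its interval of 0.828 to 10.4 included 1. After poly(I:C) 1 of 5 was, the kinase Wnk1 that acts upstream of Stk39 (11 against 7 UMIs, interval 1.26 to 10.8), beside 17.7% of all genes. None was at least 2-fold lower in either. The summed ratios to saline of the 25 choroid markers outside the gate were 1.32 after LPS (1.21 to 1.45) and 1.13 after poly(I:C) (0.992 to 1.29). Over the genes used for scaling by the median of ratios, the median ratio to saline was 0.853 after LPS and 1.51 after poly(I:C). Whether the higher sums are particular to secretion genes was not tested.

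Of 8 solute and drug carriers counted after LPS, 4 were at least 2-fold higher and 1 lower, beside 15.7% and 12.9% of all genes counted. The copper carrier Slc31a1 had 14 UMIs in LPS nuclei, 0 in poly(I:C) nuclei and 1 in saline nuclei, and the vitamin C carrier Slc23a2 had 12, 3 and 1. The amino acid carrier Slc6a20 had 9, 6 and 1 UMIs and the zinc carrier Slc39a12 had 13, 3 and 3. For these 2 the interval of LPS over saline included 1. The 4 higher carriers passed the minimum of UMIs mostly through the LPS library, so the 4 of 8 is no separate evidence. The thyroid hormone carrier Slco1c1 had 4, 1 and 6 UMIs, a ratio of 0.398 for LPS over saline (0.0826 to 1.68). Over the 32 carriers in the files the summed ratio was 1.38 after LPS (0.997 to 1.94) and 1.17 after poly(I:C) (0.716 to 1.89), and the 1 carrier counted after poly(I:C) was within 2-fold.

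Of the tight and adherens junction genes, 6 were counted after LPS, with Marveld2 (tricellulin) past 2-fold upward and the scaffold genes Tjp1 and Magi3 past 2-fold downward, on 10 against 2, 4 against 8 and 4 against 6 UMIs. Beside the 15.7% and 12.9% of all genes past 2-fold these are small counts, and the intervals of all 3 included 1 (0.636 to 28.0, 0.0658 to 1.11 and 0.0826 to 1.68). Their summed ratio was 0.955 (0.694 to 1.32), and 1.25 after poly(I:C) (0.811 to 1.91), where 1 of 3 counted, the polarity gene Pard3, was higher with an interval of 0.678 to 7.57, beside 17.7% of all genes. Among hormones, growth factors and their receptors, Ednrb, the type B endothelin receptor, was the 1 of 13 at least 2-fold higher after LPS (9 against 2 UMIs), a share below the 15.7% of all genes, with an interval of 0.556 to 25.6. After poly(I:C) Igf1r was higher (9 UMIs in each of the 2 libraries, interval 0.797 to 6.44) and Ttr lower, of 8 counted, beside 17.7% and 24.0% of all genes. Of 13 choroid markers outside the gate counted after LPS, Sulf1, which trims heparan sulfate, was at least 2-fold higher and none lower, beside 15.7% and 12.9% of all genes, and its interval of 0.971 to 8.88 included 1. Of 11 counted after poly(I:C), Sulf1 was higher, at 1045 CPM against 256 CPM in saline nuclei (interval of the ratio 1.23 to 15.5), and Ttr lower, beside 17.7% and 24.0% of all genes.

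Cilium genes had 1 of 6 counted at least 2-fold higher after LPS, near the 15.7% of all genes, the dynein gene Dnah12 with 22 UMIs in LPS nuclei, 0 in poly(I:C) nuclei and 6 in saline nuclei, and its interval for LPS over saline was 0.861 to 6.60. None of the 4 counted after poly(I:C) passed 2-fold. The single iron and metal gene counted after LPS was within 2-fold, and none was counted after poly(I:C).

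Outside the interferon list, genes of inflammation had few UMIs in these nuclei. The 29 cytokines and chemokines in the files had 15, 5 and 1 UMIs in the LPS, poly(I:C) and saline nuclei, a ratio to saline of 8.96 (1.38 to 377) after LPS and 11.3 (1.27 to 536) after poly(I:C) that rests on 1 saline UMI. In the other barcodes these genes were at 1.14 and 3.01 times saline. After LPS Il15 and the death ligand gene Tnfsf10 had 3 UMIs each and Cxcl1 and Il18 had 2 each, and no member reached 10 UMIs. The 25 NF-kB targets had 22, 4 and 6 UMIs, a ratio of LPS to saline of 2.19 (0.861 to 6.60). Acute phase and STAT3 targets had 26, 5 and 4 UMIs, a ratio of 3.88 (1.35 to 15.3) after LPS and 2.83 (0.609 to 14.3) after poly(I:C). They included Stat3 with 6, 3 and 2 UMIs, Il6st, the shared receptor subunit of the interleukin 6 family, with 5, 1 and 0, and ceruloplasmin (Cp) with 4, 0 and 0. In the other barcodes the same list was 2.10 and 1.91 times saline.

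The class I presentation genes had 43, 19 and 10 UMIs, with summed ratios to saline of 2.57 (1.27 to 5.73) after LPS and 4.30 (1.90 to 10.4) after poly(I:C), against 1.23 and 1.65 in the other barcodes. They included Nlrc5, the transactivator of class I genes, with 6, 4 and 0 UMIs and B2m with 3, 3 and 0, and the 2 members counted after LPS were within 2-fold. Among receptors, Tlr4 was at 0 in all gated nuclei, which allows up to 91.8, 348 and 154 CPM (3 counts) in the LPS, poly(I:C) and saline nuclei, and Tlr3 had 3 UMIs, all after poly(I:C), in 2 nuclei. Ifnar1 and Ifnar2, the 2 chains of the type I interferon receptor, had 2, 0 and 3 and 1, 0 and 3 UMIs. Of the 2 receptors counted after LPS, Tgfbr2 was at least 2-fold higher (10 against 2 UMIs, interval 0.636 to 28.0), beside 15.7% of all genes, and the 1 counted after poly(I:C) was within 2-fold.

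The remaining lists held few counts. Complement genes had 3, 2 and 0 UMIs. Leukocyte adhesion and matrix enzyme genes had 24, 7 and 9 UMIs, genes of oxidative stress and metallothionein 14, 2 and 7, heat shock and unfolded protein genes 17, 5 and 11, and glucocorticoid-induced and clock genes 55, 13 and 36. Every summed interval of these lists against saline that could be formed included 1, and none of their counted members passed 2-fold, 4 after LPS and 0 after poly(I:C).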

How the data were processed

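Nuclei were isolated on an iodixanol gradient and made into 5′ droplet libraries of 10x Genomics, per the labels' protocols. Raw counts of UMIs for each gene and barcode were deposited, without normalisation. The counts come from Cell Ranger 7.0.0 on the build mRatBN7.2, per the submitters' processing notes; the annotation is not given in the sources used here. Features sharing a name were summed (30560 features, 28370 names).

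All barcodes entered the gate. Of 447 symbols in 18 gene lists 35, and of 87 marker symbols of 13 cell types 8, were not found among the names and are not analysed here. The nuclei, lists and alternatives were chosen with earlier results of these data known. A gene was counted with at least 10 UMIs in the 2 libraries together, and called at a ratio of at least 2 or at most 0.5. Ratios have exact conditional (Clopper-Pearson) 95% intervals, and a ratio against 0 UMIs is a bound set with 3 counts. Intervals cover counting error only. With 1 library per group there was no significance test. Named were, per comparison, the 14 higher and 10 lower genes with a symbol whose interval's end nearest 1 lay farthest from 1, up to 4 called members of each list, the gate genes and markers, and genes needed to describe a list; some are not reported here.

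Scrublet's automatic threshold called 0, 629 (4.80%) and 0 doublets in the LPS, poly(I:C) and saline libraries, so it did not work and doublets were kept. An alternative left out the highest scores at 0.8% per 1000 barcodes. Scrublet scored 33 of the 33 LPS, 0 of the 18 poly(I:C) and 15 of the 21 saline gated nuclei, and 2, 0 and 0 were left out. This alternative could therefore remove no poly(I:C) nucleus, and it left poly(I:C) over saline unchanged. Alternatives changed the gate, filters, scaling, minimum and background. Ratios were tested on simulated data. The tools were scanpy 1.11.5, scipy 1.17.1 and matplotlib 3.10.9 with Python 3.11.15, pandas 2.3.3, anndata 0.12.19 and numpy 2.4.6.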

Additional observations from a re-analysis of the deposited data

How the results depend on the processing

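With 1 library per group no replicate could be left out. No paired analysis was possible because each group holds 1 library. The alternatives without the neuronal ceiling, without nuclei over 1100 UMIs, with a neuronal profile subtracted, thinned to 400 UMIs and without the highest Scrublet scores were chosen after seeing the data. Scrublet's automatic threshold was not run as an alternative, and the filter of 500 genes left no poly(I:C) nucleus (share 0%) and so no value for its comparisons. The summed interferon-stimulated genes stayed above saline under every alternative tried, at 9.94 to 23.1 times saline after LPS and 36.8 to 110.2 times after poly(I:C) where saline held any of these UMIs, and LPS at 0.140 to 0.270 times poly(I:C). With bounds taken at their value, past 2-fold under every alternative that gave a value were 5 of the 14 named higher and 4 of the 10 named lower genes of LPS over saline, 10 of 14 and 2 of 10 of poly(I:C) over saline, and 4 of 14 and 9 of 10 of LPS over poly(I:C). Counts of genes depended strongly on the gate and the minimum, as did the number of genes counted, and few UMIs limit every value. In the order LPS over saline, poly(I:C) over saline and LPS over poly(I:C), 1253, 525 and 946 genes were counted in the main setting. The stricter gate gave 299, 47 and 274, at most 1 neuronal UMI 703, 276 and 667, and no neuronal ceiling 2510, 1704 and 1898. At least 20 UMIs gave 434, 164 and 304, and no minimum 4899, 3058 and 3833. In the counts of genes below, the number at least 2-fold higher comes before the number at least 2-fold lower.

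With at least 5 gate UMIs of 3 genes, the shares were 0.143%, 0.0400% and 0.0197% (16, 6 and 5 LPS, poly(I:C) and saline nuclei). Genes called were then 69 and 25 for LPS over saline, 7 and 8 for poly(I:C) over saline, and 44 and 40 for LPS over poly(I:C). The saline nuclei then held 0 UMIs of the interferon-stimulated genes, which summed to at least 3.07 and at least 21.9 times saline after LPS and poly(I:C), and their median log2 ratio, of 1 member against 3 counts, was at least 2.02 after poly(I:C). Frmd4a (1.35) and Nrxn3 (1.65) changed direction there for LPS over saline, Lrrtm4 (2.44) for poly(I:C) over saline and Pcdh9 (0.922) for LPS over poly(I:C). For Arhgef3, Mtus1, Bicc1, Cdr2 and Rrbp1 over saline, and for Adgrb3, Clasp2, Pan3 and Csmd3 over poly(I:C), that gate left 0 UMIs in saline or poly(I:C) nuclei and a lower bound under 1, which fixes no direction. The poly(I:C) medians given below also hold genes at 0 in saline at their bound. With at most 1 neuronal UMI the saline share was 0.0472%, and genes called were 110 and 96 for LPS over saline, 58 and 50 for poly(I:C) over saline and 109 higher for LPS over poly(I:C). The poly(I:C) median was 2.48, and Nrxn3 turned to 1.03 for poly(I:C) over saline. Without the neuronal ceiling the saline share was 0.130%, and genes called were 377 and 270, 196 and 251, and 334 and 233 in the 3 comparisons. The summed ratio was 36.8 for poly(I:C) over saline and 0.270 for LPS over poly(I:C). Cdh13 turned to 1.02 for LPS over saline, Adgrb3 to 1.15 and Nav3 to 1.08 for poly(I:C) over saline, and Adgrb3 (0.599), Csmd3 (0.904), Lsamp (0.631), Nav3 (0.720) and Pcdh9 (0.903) for LPS over poly(I:C).

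Without nuclei over 1100 UMIs, genes called were 120 and 72 of 682 for LPS over saline and 59 and 43 of 260 for poly(I:C) over saline. The poly(I:C) median was 2.01, and Pcdh9 turned to 0.507 for LPS over poly(I:C). Without nuclei holding 3 UMIs of another cell type, 105 and 88 of 622 genes were called for LPS over poly(I:C), the summed ratio was 0.230 and Pcdh9 turned to 0.536. Without the highest Scrublet scores Lsamp turned to 0.955 in that comparison. With a neuronal profile subtracted, genes lower numbered 105 of 970 and 82 of 375 for LPS and poly(I:C) over saline. Adgrb3, left at 0 UMIs after poly(I:C), had no fixed direction. Thinned to 1000 UMIs, the shares were 0.0430%, 0% and 0.0327%, but barcodes with fewer UMIs were left out of them. These included 27 of the 33 LPS, all 18 poly(I:C) and 14 of the 21 saline gated nuclei. The 0% therefore says nothing about the gated poly(I:C) nuclei. Thinned to 400 UMIs, which left out no barcode, the shares were 0.0981% and 0.0393% for LPS and saline.

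Scaling by the median of ratios shifted log2 ratios by 0.23, -0.59 and 0.66 in the 3 comparisons. It gave 42 and 238 genes for poly(I:C) over saline, 346 and 45 for LPS over poly(I:C), a poly(I:C) median of 2.59 and a summed ratio of 0.263 for LPS over poly(I:C). With at least 20 UMIs, genes called were 42 and 57, 21 and 46, and 53 and 36. With no minimum they were 542 and 867 for LPS over saline, 1201 and 271 for poly(I:C) over saline and 1494 lower for LPS over poly(I:C), with a poly(I:C) median of 2.58. Free RNA at 5% and totals without Ttr and mitochondrial genes moved these little. Means over nuclei gave summed ratios to saline of 13.35 after LPS and 68.6 after poly(I:C), in place of 18.3 and 110.2. They gave 221 and 191 genes for LPS over saline, 87 and 131 for poly(I:C) over saline, and 151 and 142 for LPS over poly(I:C). The cause of these changes was not tested.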
